A study of Mus musculus with 4 samples.

Results

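Fibronectin, collagens, laminins and other matrix genes were examined together with the integrins and Cd44, the receptors by which cells hold on to them. The 38 genes were chosen by name, as a fixed list, from the 53647 genes of the deposited tables, and all 38 were found there. The list was drawn up with earlier results of these data known, so the directions of its genes are a description. RNA had been sequenced from 4T1, a line from a mammary tumour of a BALB/c mouse, labelled wild type. One group was given mRNA that encodes uniSTING, a protein built to mimic STING, the adaptor of cytosolic DNA sensing. The other, called Mock, was given EGFP mRNA, which encodes a green fluorescent protein. Both had 2 libraries, called replicates 1 and 2 here after the preparation number in the labels. All cells were grown with serum and given mRNA with either the TransIT-mRNA reagent or SS-OP lipid nanoparticles. The labels do not assign a carrier to a library and state no dose or time. They do not say that the preparations were separate cultures, so p-values speak only of the spread of these libraries, which may be technical. Fewer cells of a type and less RNA per cell cannot be told apart in such bulk samples.

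The extracellular matrix of epithelial cells has a basement membrane, a sheet in which laminin trimers and a collagen IV network are joined by nidogen and by the heparan sulfate proteoglycans perlecan and agrin. Fibronectin, tenascin and thrombospondin are glycoproteins of the looser matrix around it, and fibrillar collagens are mostly made by fibroblasts. Integrins are pairs of an alpha and a beta chain that bind these proteins outside the cell and, through talin and filamin, the actin cytoskeleton inside it. 4T1 cells are a model of invasive and metastatic mammary cancer, in which contact with matrix is much studied.

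Total counts ran from 17502694 to 25071840 per library. The epithelial markers summed to 4680 to 4740 CPM (counts scaled to library size) in Mock and 4860 to 4870 CPM in uniSTING. Krt8, Krt18, Krt7, Cdh1 and Epcam were the most abundant. Of the basal keratins on the list, Krt14 had a mean of 178.5 CPM in Mock and 204.1 CPM in uniSTING, and Krt5 had 1 count. Of 26 markers of fibroblasts, endothelial cells and leukocytes, 19 had at least 5 counts in all. Among these, 7 (Dcn, Dpt, Kdr, Lyz2, Ptprc, Thy1 and Vwf) had counts in the replicate 1 library of each group and none in the replicate 2 libraries. The summed fibroblast markers were at 74.6 to 80.6 CPM in Mock and 70.6 to 71.4 CPM in uniSTING, most of it from Postn. Endothelial markers summed to 8.33 to 9.42 and 8.52 to 12.9 CPM and leukocyte markers to 7.42 to 18.9 and 11.6 to 28.6 CPM. Pi16 and Itgam had no count.

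Most of the 38 listed matrix and integrin genes were lower after uniSTING, unlike the further matrix and integrin genes described below. Of the 38 genes, 35 had enough counts to be tested, and 24 of them were lower and 5 higher (adjusted p under 0.05, from edgeR's quasi-likelihood test with Benjamini-Hochberg adjustment over 12972 genes). By the same rule 25.4% of all tested genes were lower and 24.9% higher, 50.2% in all. In 27 members both Mock libraries lay above both uniSTING libraries and in 6 both lay below, an order seen in 37.3% and 37.8% of all tested genes. The 27 include Nid1 and the 6 include Col6a2, which had few counts. Each of these reached the count filter through the group where it was higher, so its order is no separate support. The lower genes were led by perlecan (Hspg2), fibronectin (Fn1) and the laminin alpha 5 chain (Lama5), the 3 that fell by at least 2-fold, a size of fall seen in 1.19% of all tested genes. The 5 higher genes were osteopontin (Spp1), the laminin chains Lama3 and Lamb3, the hyaluronan receptor Cd44 and the integrin beta 1 chain Itgb1, none by as much as 1.5-fold. The median log2 fold change was -0.39 over the tested members and 0.006 over all tested genes. Taken from replicate 1 of each group it was -0.38, and from replicate 2 it was -0.40.

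The members are long genes, with a median exon length of 7.11 kb against 4.15 kb for all tested genes, and long genes were lower in general. In the decile of shortest genes, with 0 members, the median change was 0.26 on the log2 scale, and in that of the longest, with 9 members, it was -0.24. In the length band that holds the middle of the members (4.2 to 11.6 kb, their 10th to 90th percentile), 36.1% of the 5615 other genes were lower and 17.8% higher, with a median of -0.07. Each member was therefore set against the 500 tested genes nearest to it in exon length. The median member lay 0.25 below them on the log2 scale, and 28 of 35 members were below their median. In all, 13 were within their lowest 10% and 3 within their highest 10%. The 13 include Nid1 and the 3 include Col1a2 and Col6a2, which had few counts and did not pass. With each library's dependence on length removed (the length trend), 21 members were lower and 5 higher, against 22.2% and 23.4% of all genes. With trends of both length and GC content removed, 19 were lower and 6 higher, against 21.5% and 21.9%, and the members' median was -0.20.

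**Figure D1:**
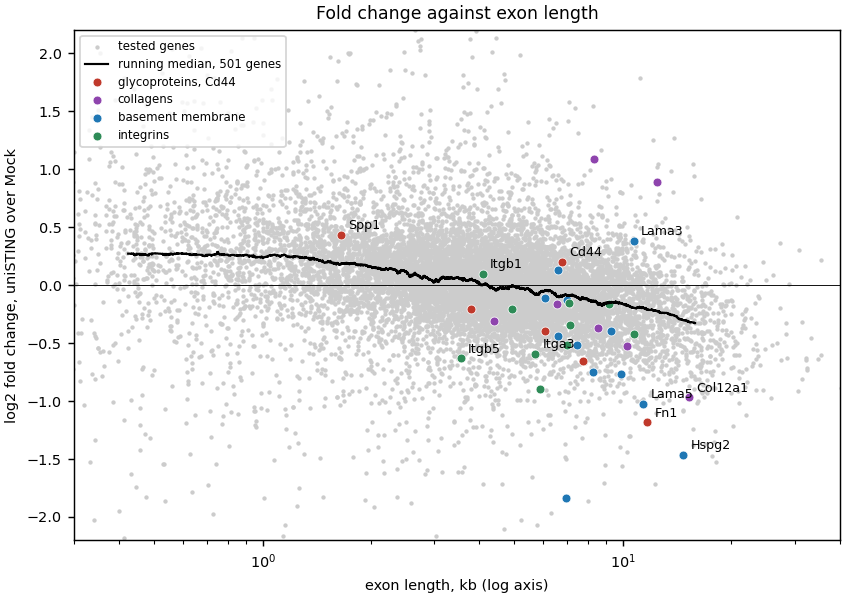
Log2 fold change of uniSTING over Mock (vertical axis) against exon length in kb (horizontal log axis) for the tested genes in grey and the 35 tested members in colour by role, with a running median over 501 genes as a black line; 182 genes lie outside the axes. The line falls with length, and Fn1, Hspg2 and Lama5 lie far below it while Lama3 and Cd44 lie above it.

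In level, the 38 genes spanned several orders of magnitude. Levels are compared between genes as CPM per kb of exon. The integrin chains Itgb1 and Itga3 were the highest, at 384 and 323 CPM per kb in Mock and 411 and 215 in uniSTING. Thbs1 followed at 178 and 135, then Fn1 at 162 and 71.5 and Spp1 at 91.8 and 124, so that Spp1 stood below Fn1 in Mock and above it in uniSTING. In every library the order was clear: the ratio of Spp1 to Fn1 per kb was 0.564 and 0.571 in the Mock libraries, against 1.71 and 1.76 in the uniSTING libraries. Hspg2 fell from the 20th to the 22nd place and Lama5 from the 11th to the 18th. At the bottom, Col1a1 was at 0.248 and 0.223 CPM per kb, and 6 genes (Nid1, Col6a2, Col1a2, Fbln1, Col3a1 and Col5a2) were under 0.1 in both groups. For the 30 tested members with at least 400 counts in all, the 2 libraries of a group differed by at most 1.13-fold in Mock and 1.15-fold in uniSTING.

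**Figure D2:**
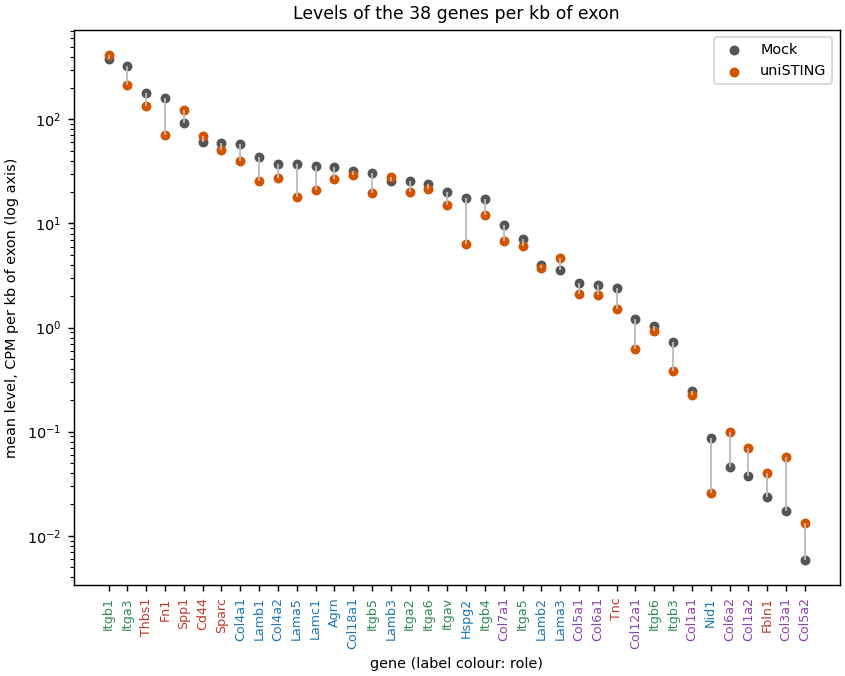
Mean level of each of the 38 genes in CPM per kb of exon (vertical log axis) in Mock (grey) and uniSTING (orange), the mean of 2 libraries each, with genes in the order of their Mock level and names coloured by role. Itgb1 and Itga3 are at the top, Fn1 drops from 162 to 71.5 and Spp1 rises from 91.8 to 124.

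Fibronectin, a glycoprotein dimer that cells assemble into fibrils through integrins, had the second highest level per kb among the matrix proteins in Mock, after thrombospondin 1. Fn1 (ENSMUSG00000026193, chromosome 1, 71624679 to 71692359, GRCm39) had 1890 and 1894 CPM in the Mock libraries, against 845 and 826 CPM in the uniSTING libraries. Both uniSTING libraries were below both Mock libraries by more than 2-fold, and the libraries of a group were close together. The log2 fold change was -1.18 (SE 0.015, adjusted p = 5.92e-12). Of the 500 genes of like length, whose median was -0.20, 2 had a lower fold change. Fn1 took 0.19% of all counts in each Mock library and 0.084% and 0.082% in the uniSTING libraries. With length and GC trends removed its log2 fold change was -0.91.

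Falls of the other glycoproteins were smaller. Thbs1, which encodes thrombospondin 1, a multi-domain glycoprotein that can activate latent TGF-beta, had 1080 and 1082 CPM in Mock and 816 and 823 CPM in uniSTING. The groups did not overlap, and the log2 fold change was -0.40 (SE 0.014, adjusted p = 4.54e-09). Tenascin C (Tnc), an anti-adhesive glycoprotein of tumour stroma, went from 17.6 and 19.3 CPM to 11.4 and 12.1 CPM, a change of -0.65 (SE 0.085). Sparc, which encodes a collagen-binding matricellular protein, went from 221 and 225 CPM to 197 and 190 CPM, a 1.15-fold fall. Fibulin 1 (Fbln1) had 2 and 2 counts in Mock against 5 and 2 in uniSTING and was too low to be tested. Its ratio of 1.59 had a 95% counting interval of 0.405 to 7.42, which covers counting error only.

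Osteopontin and one of its receptors went the other way. Spp1 (ENSMUSG00000029304, chromosome 5, 104582984 to 104588916, GRCm39) encodes osteopontin, a secreted phosphoprotein that binds integrins and Cd44. It had 150 and 152 CPM in Mock and 204 and 205 CPM in uniSTING, with no overlap (log2 fold change 0.43, SE 0.025, adjusted p = 1.57e-07). At 1.65 kb it is the shortest member, and genes of its length had a median of 0.18. It stood above 78.6% of them, and its log2 fold change was 0.25 with the length trend removed and 0.17 with length and GC trends removed, past the test both times. Of its exon bases, 18.8% also lie in exons of another annotated gene (Gm42793), where reads cannot be assigned without strand. Cd44, the hyaluronan receptor, had 414 and 411 CPM in Mock and 466 and 481 CPM in uniSTING (log2 fold change 0.20, SE 0.020, adjusted p = 1.27e-05). Being 6.78 kb long, it lay above 84.4% of genes of like length, and the length trend moved it to 0.29.

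**Figure D3:**
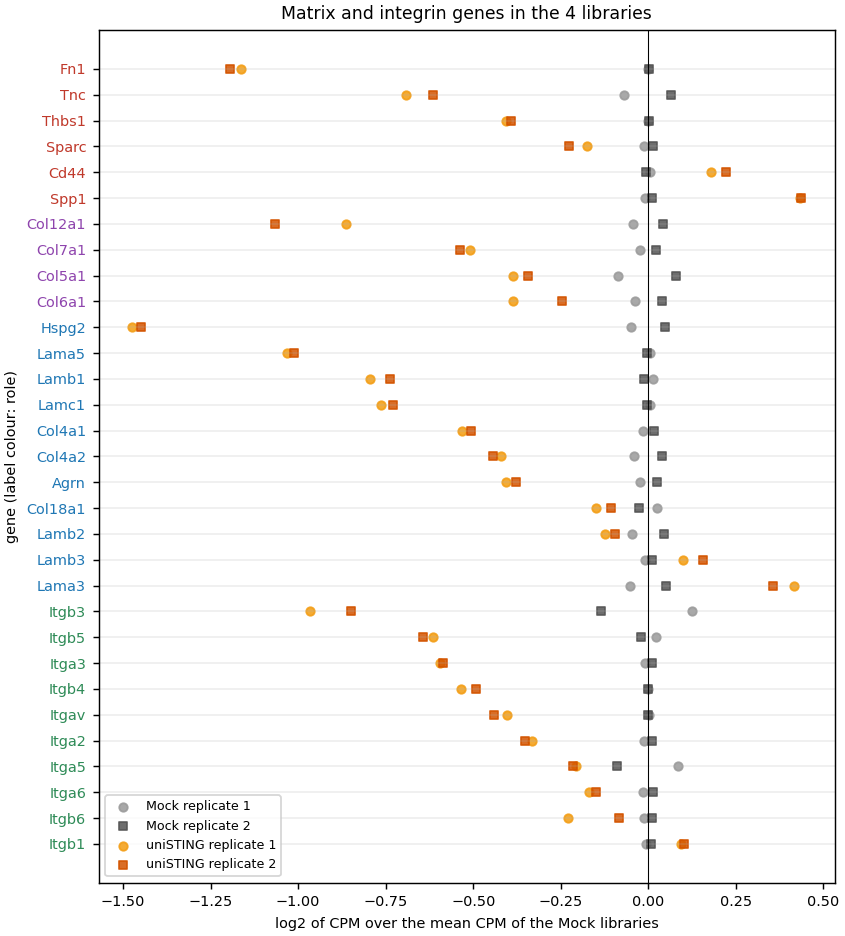
Values of the tested members with at least 150 counts, 1 row per gene, as the log2 of each library's CPM over the mean of the 2 Mock libraries (horizontal axis), with grey symbols for Mock and orange for uniSTING libraries and gene names coloured by role. The uniSTING symbols lie left of the Mock symbols in most rows, furthest for Hspg2 and Fn1, and to the right for Spp1, Cd44, Lama3, Lamb3 and Itgb1.

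In the basement membrane group, 8 of 12 genes fell and 2 rose. The share that fell was 66.7%, against 25.4% of all tested genes and 36.1% in the length band of the members. With the length trend removed, 7 were lower and 2 higher, against 22.2% and 23.4% of all tested genes. Perlecan, the large heparan sulfate proteoglycan encoded by Hspg2 (ENSMUSG00000028763, chromosome 4, 137196080 to 137297941, GRCm39), fell the most of all tested members that passed. It had 250 and 268 CPM in Mock and 93.3 and 94.9 CPM in uniSTING, or -1.46 as a log2 fold change (SE 0.035, adjusted p = 2.95e-10). Both uniSTING libraries were far below both Mock libraries. Of the 500 genes of like length, 2 were lower. Agrin (Agrn), another proteoglycan of basement membranes, fell less, from 318 and 329 CPM to 244 and 249 CPM (log2 fold change -0.39, SE 0.024). Genes of like length had a median of -0.15, and 23.4% of them were below Agrn.

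Laminin chains moved in both directions. Lama5 (ENSMUSG00000015647, chromosome 2, 179818166 to 179867652, GRCm39), Lamb1 and Lamc1 encode the chains of a trimer found in most epithelial basement membranes, and all 3 fell. Lama5 had 421 and 419 CPM in Mock and 205 and 208 CPM in uniSTING (log2 fold change -1.02, SE 0.021, adjusted p = 1.26e-10). Lamb1 went from 436 and 428 CPM to 249 and 259 CPM (-0.76, SE 0.024) and Lamc1 from 293 and 291 CPM to 172 and 176 CPM (-0.75, SE 0.024). All 3 were within the lowest 10% of genes of like length. Lama3 and Lamb3 encode chains of a laminin that anchors epithelia at hemidesmosomes. Lama3 rose from 37.0 and 39.7 CPM to 51.2 and 49.1 CPM (log2 fold change 0.38, SE 0.062, adjusted p = 4.22e-04), above 95.4% of genes of like length. Lamb3 rose from 169 and 172 CPM to 183 and 190 CPM (0.13, SE 0.028, adjusted p = 0.00267).

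Per kb of exon, the ratio of Lama3 to Lama5 was 0.0931 and 0.100 in the Mock libraries, against 0.264 and 0.250 in the uniSTING libraries. The ratio of Lamb3 to Lamb1 was 0.583 and 0.601 in Mock and 1.10 in each uniSTING library. Neither ratio overlapped between groups, and they were not tested further. Lamb2, a beta chain of muscle and kidney basement membranes, had 23.8 and 25.3 CPM in Mock and 22.5 and 23.0 CPM in uniSTING and did not pass (adjusted p = 0.222).

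Promoter windows of the 2 members of the basement membrane with the largest falls that passed and of Spp1, which rose, are printed to show how different their starts are in base composition. They come from RefSeq on GRCm38.p6, run from 250 bases before to 50 bases after an annotated start, and carry in capitals each match on either strand to GGGCGG (the GC box), CCAAT or TATAAA, which were allowed to overlap. Windows were found for 28 of the 38 members, 37 in all. These data do not show which start the cells used. Spp1 is 1 of the 5 members that rose, and no window of the others is printed. Promoters of genes that fell and of genes that rose are thus not compared here.
Hspg2, chr4:137468553-137468852, plus strand: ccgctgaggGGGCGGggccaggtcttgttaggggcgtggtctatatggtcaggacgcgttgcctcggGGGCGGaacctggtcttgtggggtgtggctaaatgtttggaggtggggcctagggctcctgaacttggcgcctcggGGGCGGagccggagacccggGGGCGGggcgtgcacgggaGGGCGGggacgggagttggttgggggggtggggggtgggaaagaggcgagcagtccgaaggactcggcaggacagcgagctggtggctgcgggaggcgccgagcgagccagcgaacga
Lama5, chr2:180225810-180226109, minus strand: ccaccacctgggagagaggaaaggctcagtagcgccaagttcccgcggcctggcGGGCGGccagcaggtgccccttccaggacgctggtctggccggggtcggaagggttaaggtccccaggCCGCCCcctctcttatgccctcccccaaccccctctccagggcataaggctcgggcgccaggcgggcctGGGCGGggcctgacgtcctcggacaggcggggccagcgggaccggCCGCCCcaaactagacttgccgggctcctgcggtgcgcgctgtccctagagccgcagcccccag
Spp1, chr5:104434861-104435160, plus strand: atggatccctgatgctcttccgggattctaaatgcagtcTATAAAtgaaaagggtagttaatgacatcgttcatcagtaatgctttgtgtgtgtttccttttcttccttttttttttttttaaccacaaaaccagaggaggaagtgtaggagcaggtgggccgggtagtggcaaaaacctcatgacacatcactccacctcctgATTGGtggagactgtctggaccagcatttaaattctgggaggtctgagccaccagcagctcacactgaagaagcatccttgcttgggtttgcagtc
The window of Hspg2 has 5 matches to GGGCGG and that of Lama5 has 4, with a GC content of 70.3% and 72.7%. That of Spp1, the more upstream of 2 in the table, has none, with 1 match each to CCAAT and TATAAA and a GC content of 45.3%. GGGCGG was in 67.6% of the members' windows and in 35.7% of all 32851 windows. CCAAT was in 24.3% and 37.4% and TATAAA in 10.8% and 13.6%. The 32851 windows were not limited to tested genes, and a gene with several starts counts more than once. These shares thus do not set the members against other genes expressed in these cells. A match of letters describes the window and shows no binding.

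Collagen IV, the network-forming collagen of basement membranes, fell in both of its measured chains. Col4a1 (ENSMUSG00000031502) had 424 and 433 CPM in Mock and 296 and 302 CPM in uniSTING (log2 fold change -0.52, SE 0.021, adjusted p = 1.05e-08). Col4a2 (ENSMUSG00000031503) went from 238 and 251 CPM to 183 and 180 CPM (-0.43, SE 0.029). The groups did not overlap for either gene. These genes lie head to head on chromosome 8, and their exons share 22 bases in the deposited annotation. Per kb, the ratio of Col4a1 to Col4a2 was 1.58 and 1.53 in Mock and 1.44 and 1.49 in uniSTING. Their RefSeq promoter windows on GRCm38.p6 share 78 bases (chr8:11312777-11312854), which are in capitals because they hold the region that both genes have in common.
Col4a1, chr8:11312777-11313076, minus strand: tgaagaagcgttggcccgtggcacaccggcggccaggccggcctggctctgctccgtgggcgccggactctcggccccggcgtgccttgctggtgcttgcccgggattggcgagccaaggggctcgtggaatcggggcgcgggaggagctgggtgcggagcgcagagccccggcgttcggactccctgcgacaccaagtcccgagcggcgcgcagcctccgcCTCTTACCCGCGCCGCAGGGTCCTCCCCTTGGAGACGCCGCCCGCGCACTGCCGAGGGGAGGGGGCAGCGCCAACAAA
Col4a2, chr8:11312555-11312854, plus strand: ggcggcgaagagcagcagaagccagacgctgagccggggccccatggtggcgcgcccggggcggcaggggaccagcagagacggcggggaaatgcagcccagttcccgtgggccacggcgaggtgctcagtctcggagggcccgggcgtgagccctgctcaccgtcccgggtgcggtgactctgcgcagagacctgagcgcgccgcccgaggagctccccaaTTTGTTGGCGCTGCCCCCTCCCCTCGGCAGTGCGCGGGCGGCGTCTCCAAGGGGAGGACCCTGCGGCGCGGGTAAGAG
The capitals of one are the reverse complement of those of the other. With length and GC trends removed the falls were -0.30 and -0.19, both still past the test.

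Col18a1 and Nid1 depend more on how the data are handled. Col18a1 encodes collagen XVIII, the source of endostatin, and had 230 and 222 CPM in Mock and 204 and 210 CPM in uniSTING (log2 fold change -0.13, SE 0.027, adjusted p = 0.00282). The groups did not overlap, but the value lay near the median of genes of like length, at -0.02 with the length trend removed (adjusted p = 0.505). With length and GC trends removed it was 0.14 higher, past the test in the other direction (adjusted p = 0.00172). Nid1, the linker of laminin and collagen IV, had 11 and 13 counts in Mock against 6 and 1 in uniSTING. It reached the count filter through the Mock libraries and did not pass (adjusted p = 0.0697). The ratio of its summed counts was 0.266 (95% counting interval 0.0966 to 0.635). It passed with limma-voom, with a replicate block and without uniSTING replicate 1 (adjusted p = 0.0236, 0.0396 and 0.0138).

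Among the other collagens, 4 of 7 tested genes fell, none rose and 3 did not pass. Those that fell were 57.1%, against 25.4% of all tested genes and 36.1% in the length band of the members. With the length trend removed 4 were lower, against 22.2% of all tested genes. With length and GC trends removed 2 were lower, against 21.5% of all tested genes. Whether these shares differ for so few genes was not tested. Col7a1, which forms the anchoring fibrils below epithelia, was the most abundant of them, with 98.6 and 102 CPM in Mock and 70.4 and 69.0 CPM in uniSTING (log2 fold change -0.53, SE 0.034, adjusted p = 4.17e-07). Col12a1, a fibril-associated collagen, went from 17.7 and 18.8 CPM to 10.0 and 8.72 CPM (-0.97, SE 0.094, adjusted p = 8.98e-06). At 15.2 kb it is the longest member, yet 2.6% of genes of like length were lower. Col5a1, whose product nucleates collagen fibrils, fell from 21.6 and 24.3 CPM to 17.6 and 18.1 CPM (-0.37, SE 0.079). Col6a1, a chain of beaded microfibrils, fell from 10.95 and 11.54 CPM to 8.59 and 9.48 CPM (-0.31, SE 0.104, adjusted p = 0.0281). Col5a1 and Col6a1 no longer passed with length and GC trends removed (adjusted p = 0.257 and 0.100). The call of Col6a1 was also lost with DESeq2 (adjusted p = 0.202), without Mock replicate 2 (0.148) and without uniSTING replicate 1 (0.115).

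Collagen I and III chains, which fibroblasts make in bulk, had few counts. Col1a1 had 35 and 28 counts in Mock against 36 and 25 in uniSTING, a ratio of 0.882 with a 95% counting interval of 0.610 to 1.27. Col1a2 had 14 and 3 counts in Mock against 27 and 7 in uniSTING, and Col3a1 had 6 and 0 against 21 and 0. Over both groups, the replicate 1 libraries held 41 of the Col1a2 and 27 of the Col3a1 counts, and the replicate 2 libraries 10 and 0. The markers of other cell types named above that were seen in the replicate 1 libraries only include the fibroblast genes Dcn, Dpt and Thy1. Their part in the Col1a2 and Col3a1 counts was not tested. Col3a1 was too low to be tested in the full fit. Without uniSTING replicate 2 it was 2.81 higher on the log2 scale (adjusted p = 0.0162) and Col1a2 1.69 higher (adjusted p = 0.0467), whereas without uniSTING replicate 1 Col1a2 was at -0.64.

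Col6a2 had 8 and 7 counts in Mock against 19 and 16 in uniSTING, a ratio of 2.12 (1.13 to 4.19). It entered the test through the uniSTING libraries and did not pass it (adjusted p = 0.101), though the libraries of the groups did not overlap. Col6a3, the third chain of collagen VI and outside the 38 genes, had no count in Mock and 2 and 0 in uniSTING. Col5a2, the partner of Col5a1, had 2 and 0 counts in Mock against 4 and 1 in uniSTING and was too low to be tested. Among the chains of collagens V and VI named here, then, 1 of each had far more counts than the others.

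Of the 10 integrin chains, 8 fell, 1 rose and 1 did not pass. The share that fell was 80%, against 25.4% of all tested genes and 36.1% in the length band of the members. With the length trend removed, 6 were lower and 1 higher, against 22.2% and 23.4% of all tested genes. With length and GC trends removed, 6 were lower and 1 higher, against 21.5% and 21.9%. Itga3, the alpha chain of the main laminin receptor of epithelia, is the second most abundant gene here per kb. It had 1835 and 1858 CPM in Mock and 1221 and 1229 CPM in uniSTING, without overlap (log2 fold change -0.59, SE 0.013, adjusted p = 1.85e-10). Of genes of like length 3.6% were lower. Itga2, the alpha chain of a collagen receptor, fell from 181 and 184 CPM to 145 and 143 CPM (-0.34, SE 0.026). Itga6 forms the hemidesmosome integrin with Itgb4. Itga6 went from 217 and 222 CPM to 195 and 198 CPM (-0.16, SE 0.024, adjusted p = 2.67e-04), close to the median of -0.15 of genes of like length. With the length trend removed the value was 0.001 (adjusted p = 0.989). Itgb4 fell from 121 CPM in each Mock library to 83.6 and 86.0 CPM (-0.51, SE 0.031). The ratio of Itga3 to Itga6 per kb was 13.5 and 13.4 in Mock and 10.0 and 9.95 in uniSTING.

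Receptors of fibronectin and vitronectin fell in most chains. Itgav, the alpha chain of several receptors that bind the RGD tripeptide, went from 217 and 216 CPM to 164 and 159 CPM (log2 fold change -0.42, SE 0.025, adjusted p = 2.05e-07). Among its partners, Itgb5 fell from 110 and 107 CPM to 70.6 and 69.3 CPM (-0.63, SE 0.034, adjusted p = 9.39e-08), and genes of its length had a median of 0.06. Itgb3 fell from 4.65 and 3.89 CPM to 2.19 and 2.37 CPM (-0.90, SE 0.200, adjusted p = 0.00334). Itgb6 had 7.26 and 7.38 CPM in Mock and 6.25 and 6.91 CPM in uniSTING and did not pass (adjusted p = 0.347). Itgb8, outside the 38 genes, had 10 counts in Mock and 9 in uniSTING. Of the exon bases of Itgav, 5.9% are shared with another annotated gene (Gm13684).

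Itga5 pairs with Itgb1 as the classical fibronectin receptor. Itga5 had 37.1 and 32.9 CPM in Mock and 30.3 and 30.1 CPM in uniSTING (log2 fold change -0.21, SE 0.074, adjusted p = 0.0376). Its call was lost with DESeq2 (adjusted p = 0.127), with the length trend removed (0.0743), with length and GC trends removed (0.369) and without Mock replicate 1 (0.269) or uniSTING replicate 2 (0.0578). Itgb1, the beta chain shared by the receptors of Itga2, Itga3 and Itga5, was the most abundant of the 38 genes. It rose from 1558 and 1574 CPM to 1672 and 1682 CPM (0.10, SE 0.013, adjusted p = 7.14e-05), a 1.07-fold change larger than the spread between libraries. Beta 1 was thus higher while these 3 alpha chains were lower, and with length and GC trends removed it was 0.04 higher (adjusted p = 0.0302).

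**Figure D4:**
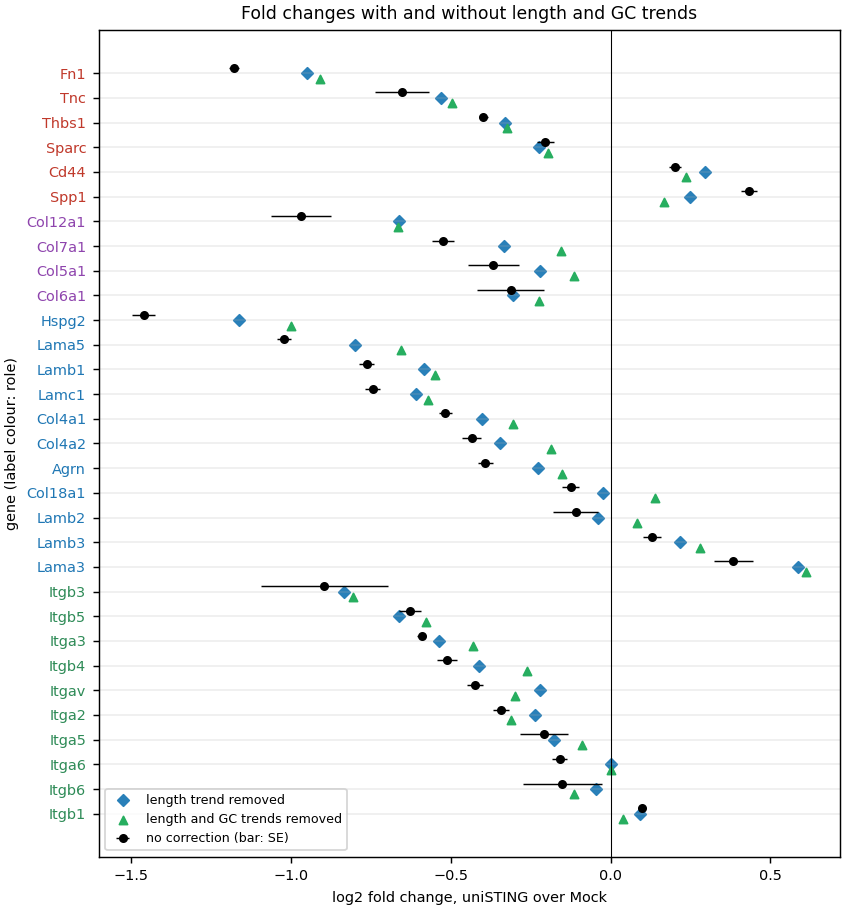
Log2 fold changes of the tested members with at least 150 counts (horizontal axis), 1 row per gene with names coloured by role, without correction (black, bar of 1 SE), with the length trend removed (blue) and with length and GC trends removed (green). Fn1, Hspg2, Lama5, Lamb1 and Lamc1 stay below -0.5 in each, Col18a1 and Lamb2 cross 0, and Itga6 moves to 0.

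Of 25 tested enzymes and chaperones that mature collagen, 6 rose, 10 fell and 9 did not pass, with a median log2 fold change of -0.01 (with DESeq2, 6 rather than 10 fell). The share that rose, 24%, is near the 24.9% of all tested genes, and the share that fell was 40% against 25.4%. The genes that rose include proline and lysine hydroxylases: Plod2 went from 79.2 and 76.9 CPM to 114 and 114 CPM (0.55, SE 0.032) and P4hb, the beta subunit of prolyl hydroxylase, from 828 and 812 CPM to 1023 and 1016 CPM (0.31, SE 0.016). Ppib, a prolyl isomerase that acts on collagen, rose from 158 and 156 CPM to 219 and 212 CPM. P4ha2 and P4ha1, catalytic subunits of prolyl hydroxylase singled out after their values were seen, rose by 1.30 (SE 0.084) and 0.52 (SE 0.030). Bmp1, the protease that trims procollagen, fell from 317 and 315 CPM to 235 and 242 CPM (-0.40, SE 0.023), and the collagen chaperone Serpinh1, also singled out after its values were seen, fell by 0.14 (SE 0.018).

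Of 33 tested focal adhesion and integrin activation genes, which link integrins to actin, 20 fell, 4 rose and 9 did not pass, with a median of -0.24. The share that fell was 60.6%, against 25.4% of all tested genes and 36.1% in the length band of the members. Talin 1 (Tln1), which switches integrins on, fell from 444 and 455 CPM to 225 CPM in each uniSTING library (log2 fold change -0.999, SE 0.022, adjusted p = 1.85e-10). Filamin A (Flna), an actin cross-linker that binds integrin tails, fell by 0.64 (SE 0.013). Actn1, an alpha-actinin, fell from 440 and 439 CPM to 328 and 329 CPM. Tln1 and Flna are long genes, and with length and GC trends removed they were at -0.74 and -0.43, both still past the test. The list then had 15 lower and 4 higher genes and a median of -0.09, where 21.5% of all tested genes were lower and 21.9% higher.

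The TGF-beta and YAP list holds matrix genes of that response together with TGF-beta ligands, their receptors and other genes such as Amotl2. Of its 15 genes, 10 fell and none rose, with a median of -0.30. The share that fell was 66.7%, against 25.4% of all tested genes and 36.1% in the length band of the members. Of all tested genes 24.9% rose. The latent TGF-beta binding proteins Ltbp1 and Ltbp3, which tether the growth factor to fibronectin and fibrillin, fell by 0.65 and 0.49. Amotl2, a YAP target, went from 194 and 202 CPM to 116 and 120 CPM (log2 fold change -0.75, SE 0.031). With length and GC trends removed, 11 fell and none rose, where 21.5% of all tested genes were lower and 21.9% higher.

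The remaining matrix and integrin genes, 66 in all with 29 tested, had 7 higher, 6 lower and 16 not passed and a median of 0.01. Those are 24.1% and 20.7%, near the 24.9% and 25.4% of all tested genes. Fbln2, which encodes the fibronectin-binding fibulin 2, fell from 684 and 695 CPM to 441 and 453 CPM (-0.63, SE 0.019), and the collagen receptor kinase Ddr2 fell by 0.37. The syndecans Sdc4 and Sdc1, heparan sulfate proteoglycans that act as co-receptors of integrins, rose by 0.28 and 0.21. Itga8, a further RGD-binding alpha chain chosen after its values were seen, had 39 and 42 counts in Mock against 118 and 138 in uniSTING (log2 fold change 1.53, SE 0.184, adjusted p = 4.55e-05).

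**Figure D5:**
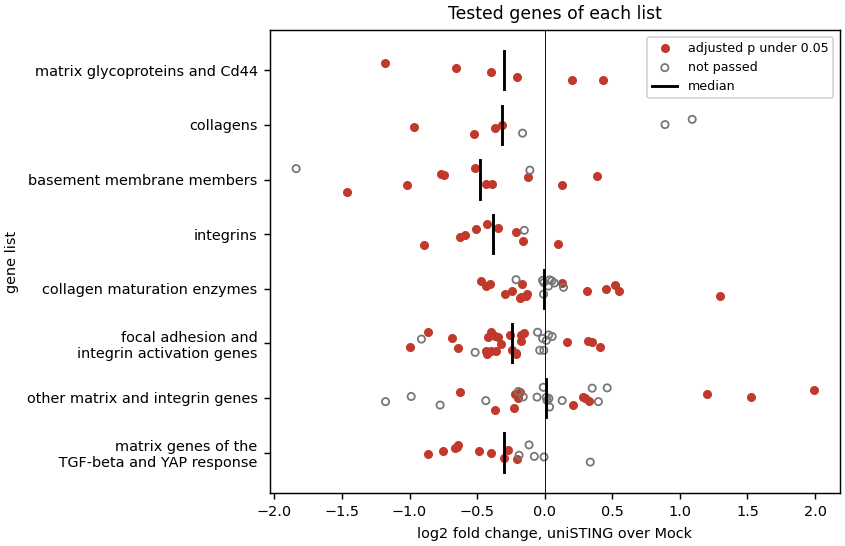
Log2 fold change of each tested gene (horizontal axis) in the 4 role groups of the 38 genes and in the 4 further lists (rows, with vertical jitter), red where the adjusted p was under 0.05 and open where not, with a black bar at the median. Medians lie below 0 in the role groups, the focal adhesion list and the TGF-beta and YAP list, and near 0 in the other 2 lists.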

How the data were processed

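Raw counts per gene were deposited, 1 table per library. Per the file headers, the authors counted with featureCounts 2.0.1 in paired-end mode over exons grouped by gene, without a strand option, on Ensembl 103 of GRCm39 and on uniquely mapped alignments. Alignment was with HISAT2 per the submitters' processing notes (version not given in the sources used here). In the headers both alignments of a group carry 1 shared prefix and differ in a suffix of unstated meaning. Without strand, a read in overlapping or antisense exons cannot be assigned.

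Groups and replicate numbers came from the titles. The variance between the 2 libraries of a group was 1.46 (Mock) and 1.52 (uniSTING) times that of counting, against 12.9 and 15.4 between groups, and both libraries were kept. Counts were tested with edgeR 4.0.16 (R 4.3.3) with TMM, filterByExpr (minimum count 10, minimum total 15), glmQLFit and glmQLFTest on the group. The common coefficient of variation was 3.15%. SE was derived from the F statistic. CPM values use TMM-scaled library sizes. Trends with exon length (lowess span 0.3) and GC content (transcripts of an older annotation, 99.9% of tested genes) were entered as offsets. Ratios of few counts have exact binomial 95% intervals. Alternatives were DESeq2 1.42.0, limma-voom (limma 3.58.1), DESeq2 size factors, other filters, a replicate block and each library left out. Fits were tested on simulated data. Named genes are the members, the leading 4 genes by p of each of 4 further lists, and subunits completing a complex. Some of these are not reported here. Members and lists were chosen with earlier results of these data known, so their directions are a description and no independent evidence.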

Additional observations from a re-analysis of the deposited data

How the results depend on the processing

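Of the 29 members that passed, 24 kept their direction and their side of the threshold in all 12 alternative settings. The counts of members lower and higher stayed between 19 and 25 and between 5 and 7. The collagens that fell numbered 2 with length and GC trends removed, and those that rose ranged from 0 to 2 when a library was left out. The collagen maturation enzymes that fell numbered 6 with DESeq2. The median log2 fold change of tested members was -0.355 without a filter, -0.238 with the length trend removed and -0.195 with length and GC trends removed, and ranged from -0.438 to -0.381 when a library was left out. The median of members minus genes of like length (-0.254) was -0.271 among genes with a mean of at least 1 CPM and with the filter of 1 CPM in 2 libraries, -0.260 without a filter, -0.262 with limma-voom and -0.217 with length and GC trends removed, and ranged from -0.343 to -0.253 when a library was left out. Values that changed sign were Col18a1 (0.139), Lamb2 (0.083) and Col1a1 (0.048) with length and GC trends removed and Itga6 (0.001) with the length trend removed. When a library was left out, Col1a1 ranged from -0.674 to 0.253 and Col1a2 from -0.641 to 2.556. With 1 library left in a group, its spread was assumed to be that of the other group. The cause of these changes was not tested beyond what each setting removes. With the replicate number as a block, 25 members were lower and 5 higher, Nid1 being the added one. Over 7965 genes the deviations of same-numbered libraries from their group means had a correlation of 0.0511, and the labels do not say that a preparation number marks a shared culture or day. The 7 markers of other cell types seen only in the replicate 1 libraries, and Col3a1, did follow the number in both groups. Fbln1, Col3a1 and Col5a2 had too few counts to be tested, and Nid1, Col1a2 and Col6a2 had few.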
